A study of Homo sapiens with 12 samples.

Results

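The genes described here are the hypoxia and glycolysis genes of 22RV1 and LnCaP, 2 established cell lines from human prostate cancer. They were taken from a list of 37 genes: HIF1A with 2 of the oxygen sensors that control it, glucose and lactate transporters, the glycolytic enzymes, enzymes that switch the flow of glucose, and other known targets of hypoxia-inducible factor (HIF). A listed gene was included if the array held a probe set that the annotation ties to a single gene symbol, and the probe set with the highest mean stood for the gene. This gave 33 of the 37 genes, out of 11963 genes in all. SLC16A1, SLC16A3, CA9 and ANKRD37 were not analysed here. The rule for membership used no difference between groups, but the list itself was chosen with earlier results of these data known.

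Cells of each line were left untreated or kept in 100 µM nicotine tartrate for 24 h, and each of the 4 groups, 22RV1 untreated, 22RV1 nicotine, LnCaP untreated and LnCaP nicotine, holds 3 arrays. No vehicle, oxygen level, glucose level or cell density is named, and none of the groups is labelled as hypoxic. Each line is a single line, so a difference between them is a difference between these stocks of cells and not between kinds of tumour. The labels do not say if the replicates are separate cultures, so the p-values measure how much these arrays scatter, and that scatter may be technical only. All values are log2 expression on Affymetrix arrays, so a difference of 1 is a doubling.

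In cells with enough oxygen, prolyl hydroxylases such as EGLN1 and EGLN3 mark the HIF1A protein for destruction through the VHL ligase. When oxygen falls, HIF1A protein builds up, pairs with ARNT and binds the short sequence ACGTG or GCGTG near its targets, which include most enzymes of glycolysis, glucose transporters, angiogenic factors and HIF's own hydroxylases. The step from oxygen to HIF1A works mainly on the protein, which these arrays did not measure. Glycolysis splits glucose to pyruvate, and lactate dehydrogenase turns pyruvate into lactate. Most steps can be run by several isozymes encoded by different genes.

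Promoter windows show where these letters lie in members that the results below turn on. BHLHE40 and BNIP3 are shown as HIF targets with large differences between the lines, P4HA2 as a HIF target with a large difference and no match in its window, and ALDOC as the glycolytic enzyme with the smallest p-value after nicotine. Each line gives the 250 bases before a transcript start in the RefSeq promoter table on build GRCh38.p14, read 5′ to 3′ along the gene's strand, with every ACGTG or GCGTG on either strand in capitals (on the opposite strand these read CACGT and CACGC). The palindrome CACGTG holds ACGTG on both strands and counts as a match on each. The windows are chr3:4979187-4979436 on the plus strand for BHLHE40, and on the minus strand chr10:131981924-131982173 for BNIP3, chr5:132227092-132227341 for P4HA2 and chr17:28576896-28577145 for ALDOC. The P4HA2 window lies inside the gene's full annotated span, which begins farther upstream, and the other windows end where the gene begins.
BHLHE40: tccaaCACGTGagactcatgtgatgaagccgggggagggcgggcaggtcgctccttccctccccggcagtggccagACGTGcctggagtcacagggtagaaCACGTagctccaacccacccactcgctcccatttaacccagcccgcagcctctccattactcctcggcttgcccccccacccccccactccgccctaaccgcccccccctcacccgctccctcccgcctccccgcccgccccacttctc
BNIP3: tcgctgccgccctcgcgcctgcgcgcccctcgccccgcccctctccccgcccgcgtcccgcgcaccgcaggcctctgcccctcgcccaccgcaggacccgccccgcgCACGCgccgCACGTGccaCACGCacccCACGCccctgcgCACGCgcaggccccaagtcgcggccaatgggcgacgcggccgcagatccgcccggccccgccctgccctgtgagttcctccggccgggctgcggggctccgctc
P4HA2: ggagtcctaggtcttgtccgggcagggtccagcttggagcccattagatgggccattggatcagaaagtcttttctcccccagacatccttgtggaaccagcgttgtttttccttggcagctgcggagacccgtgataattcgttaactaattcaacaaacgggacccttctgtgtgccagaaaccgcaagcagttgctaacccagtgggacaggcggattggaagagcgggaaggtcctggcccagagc
ALDOC: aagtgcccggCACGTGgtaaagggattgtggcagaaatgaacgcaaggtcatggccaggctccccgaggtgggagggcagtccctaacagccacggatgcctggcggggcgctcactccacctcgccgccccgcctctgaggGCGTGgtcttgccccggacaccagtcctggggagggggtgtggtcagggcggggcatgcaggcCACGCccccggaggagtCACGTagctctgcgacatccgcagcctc
BHLHE40 had 4 matches, all of them ACGTG, BNIP3 had 6, ALDOC had 5 and P4HA2 had 0 in this window.

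Windows of the same 250 bases were searched for 30 of the 33 members, and BNIP3L, SLC2A3 and VEGFA had no entry. ACGTG lay in a window of 17 of the 30 members (56.7%), against 27.1% of 9562 genes of the array and 21.7% of all 27305 genes in the table. Either ACGTG or GCGTG lay in a window of 24 members (80%), against 60.6% of the array's genes. The members had more windows per gene than the array's genes (1.83 against 1.47) and a higher median GC content per window (68.4% against 62.8%), and the part of these in the gap was not tested. Counted by window, ACGTG was in 36.4% of member windows and in 20.7% of those of the array's genes. Among glycolytic enzymes 9 of 15 held ACGTG, and among the other HIF targets with a window 5 of 8 did. A match describes letters and is not a bound site.

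On the whole series, the lowest correlation between arrays of one group was 0.992 and the highest between the lines was 0.933. The arrays numbered 3 in the 4 groups stood apart: of the squared deviations from the group means, they carried 48% over all genes and 54.5% over the 33 members. Of 9 luminal prostate markers 7 were measured, and their summed linear signal lay between 9860 and 14500 on the 22RV1 arrays and between 20000 and 22800 on the LnCaP arrays. A linear sum gives weight to bright genes such as KLK3, which was higher in untreated LnCaP by 4.09. Of the 7 markers, 4 were called higher in untreated LnCaP (25.4% of all genes), while KRT8 (-0.26) and KRT18 (-0.13) were below 0. Sums of the 3 measured basal, 4 leukocyte and 4 endothelial markers lay between 59.6 and 378 on all 12 arrays, and that of 5 fibroblast markers between 298 and 444. Sums over different lists are not comparable with each other. All 10 proliferation genes looked at were lower after nicotine in both lines. In LnCaP 8 of them were called, against 0.694% of all genes (median log2 change -0.63). In 22RV1 0 were called, against 0% of all genes (median -0.25). The proliferation genes are returned to below, beside HK2 and SLC2A1.

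In the main fit (group means, the highest-mean probe set of each gene, no replicate block), no hypoxia or glycolysis gene was called after nicotine in either line. With the replicate number as a block, HK2 was called in LnCaP, and HK2, ALDOC and VEGFA for the average of the lines. Some settings without a block also called HK2 in LnCaP (the mean of its probe sets) or ALDOC for the average, as the closing section gives. In the main fit, at an adjusted p under 0.05 over all genes (limma, Benjamini-Hochberg), 0 of the 33 members were called in 22RV1 (0% of all genes). In LnCaP 0 of 33 were called (0.694% of all genes). The average of both effects called 0 of 33 members (0.376% of all genes), and the difference between the effects called 0 of 33 (0% of all genes). At an unadjusted p under 0.05 there were 1 member in 22RV1 (5.29% of all genes), 4 in LnCaP (12.2%), 4 for the average (11.6%) and 2 for the difference (6.26%). The 3 treated and 3 untreated values did not overlap for 4 members in 22RV1 (11.9% of all genes) and for 8 in LnCaP (17.2%). Read against these backgrounds, the counts of members are no result about them.

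Most members moved little. The 33 members had a median log2 change of -0.003 in 22RV1, where that of all genes was -0.007. In LnCaP their median was -0.050, and that of all genes -0.001. In 22RV1, 30 members (90.9%) lay within 0.2 of 0, as did 87.5% of all genes, and in LnCaP 27 (81.8%), against 80%. The data bound these effects: the 95% confidence interval lay inside -0.5 to 0.5 for 26 of 33 members in 22RV1 and for 26 in LnCaP, and was widest for PFKFB3, at 0.59 to either side. The sign was the same in both lines for 18 of 33 members (54.5%), and for 56.4% of all genes.

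**Figure D1:**
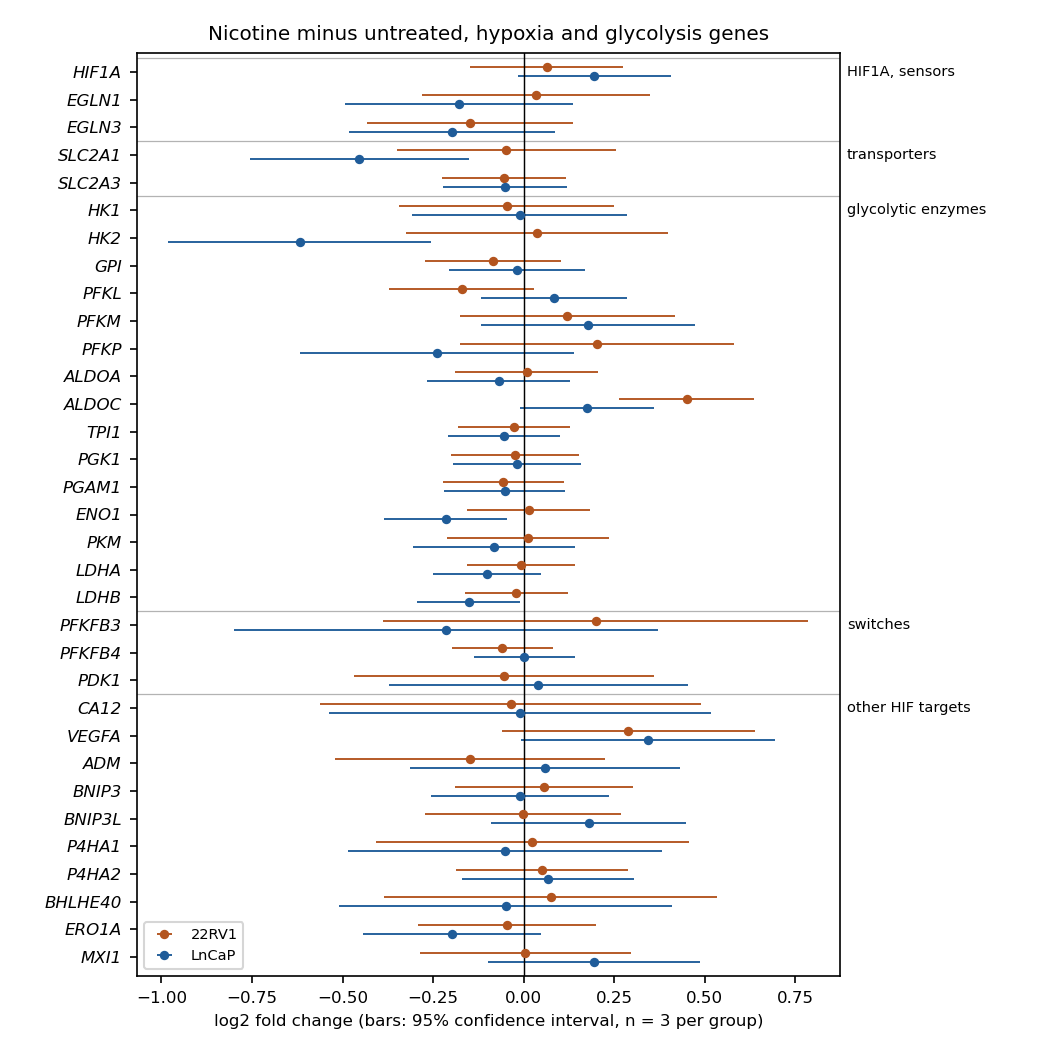
Log2 fold change after nicotine (x axis) for each of the 33 members (y axis, grouped by role), 22RV1 in orange and LnCaP in blue; bars are 95% confidence intervals, with 3 arrays per group. Most points lie near 0, HK2 and SLC2A1 lie lowest in LnCaP (-0.62 and -0.45), and ALDOC lies highest in 22RV1 (0.45).

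The glycolytic enzymes and the other HIF targets differed little in their medians. In 22RV1 the median change was -0.008 for the 15 glycolytic enzymes (7 above and 8 below 0) and 0.015 for the 10 other HIF targets (6 above, 4 below). In LnCaP it was -0.054 for the enzymes (3 above, 12 below) and 0.025 for the HIF targets (5 above, 5 below). The enzymes' median minus that of the HIF targets was -0.079 in LnCaP. Over the settings tried it ran from -0.140, without LnCaP nicotine replicate 2, to -0.065. In 22RV1 it was -0.023 and had no steady sign: it was 0.016 without 22RV1 untreated replicate 3, 0.003 without 22RV1 nicotine replicate 1, and -0.058 and -0.067 without 22RV1 untreated replicates 1 and 2. It was -0.037 and -0.040 without 22RV1 nicotine replicates 2 and 3. Taken on single arrays, the gap between the 2 lists had an SD of 0.166 between arrays of a group. No gene of either list passed the test, and 49.6% of all genes had a positive change in LnCaP. The 12 enzymes below 0 were small apart from HK2: the next were PFKP at -0.24, ENO1 at -0.22 and LDHB at -0.15.

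HIF1A, the oxygen-regulated subunit itself, was measured at 11.14, 11.15 and 10.91 in untreated 22RV1 and at 11.22, 11.17 and 11.00 after nicotine. In LnCaP it was 10.92, 11.00 and 10.89 untreated and 11.19, 10.99 and 11.21 after nicotine. The groups overlapped in both lines. The log2 change was 0.06 ± 0.097 (SE, n = 3 per group, limma adjusted p = 0.997) in 22RV1 and 0.19 ± 0.097 (adjusted p = 0.466) in LnCaP. The hydroxylase EGLN1 changed by 0.03 and -0.18, and EGLN3, itself a HIF target, by -0.15 and -0.20. None passed the test.

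SLC2A1, the glucose transporter GLUT1, was lower on every treated LnCaP array than on any untreated one. Untreated LnCaP arrays read 7.39, 7.39 and 7.92, and treated arrays 7.13, 7.10 and 7.10. The treated values were nearly identical, and the third untreated array stood above the other two. The change was -0.45 ± 0.14 (SE, n = 3 per group), with a 95% interval from -0.76 to -0.15, but did not pass (limma adjusted p = 0.168, and 0.0779 with the replicate number as a block). Without LnCaP untreated replicate 3 it was -0.28 (limma adjusted p = 0.414). In 22RV1 the values were 6.91, 6.81 and 6.85 untreated and 6.60, 7.02 and 6.81 treated, which overlapped (change -0.05 ± 0.14). A second, dimmer SLC2A1 probe set gave 0.01 in LnCaP. The other glucose transporter measured, SLC2A3 (GLUT3), changed by -0.05 in both lines. Its mean signal of 5.11 was below the lower quartile of gene means (5.23), and whether it is above background is not known.

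HK2, the inducible hexokinase that traps glucose in the cell as glucose 6-phosphate, had the smallest p-value of the members in LnCaP. It was measured at 8.03, 8.32 and 8.55 on the untreated LnCaP arrays and at 7.61, 7.63 and 7.81 on the treated ones, so the groups did not overlap. The same-numbered arrays differed by -0.43, -0.68 and -0.74. The change was -0.62 ± 0.17 (SE, n = 3 per group), or 1.54-fold lower, with an adjusted p of 0.115 in limma. With the replicate number within each line as a block, HK2 fell (SE 0.084, limma adjusted p = 0.00874), the only one of the 33 members called there, against 5.39% of all genes. It also fell as the mean of its probe sets (-0.54, limma adjusted p = 0.0150), and the second HK2 probe set alone gave -0.46.

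In 22RV1, HK2 was 9.27, 9.33 and 8.77 untreated and 9.23, 9.31 and 8.94 treated, a change of 0.04 ± 0.17. The effect in LnCaP minus that in 22RV1 was -0.66 ± 0.23 (95% interval from -1.17 to -0.14), which did not pass the test (limma adjusted p = 0.715, and 0.0813 with the block, where 0 members passed against 0.159% of all genes). HK1, the constitutive hexokinase, changed by -0.05 in 22RV1 and -0.01 in LnCaP. In LnCaP, HK2 and SLC2A1 were lower in the same arrays in which the proliferation genes were lower: the summed linear signal of those 10 genes was 6870 to 7430 untreated and 4280 to 5120 treated, and in 22RV1 9160 to 10700 and 7540 to 8480. Its part in the HK2 and SLC2A1 values was not tested.

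ALDOC, the brain-type aldolase that splits fructose 1,6-bisphosphate, had the smallest p-value in 22RV1 and was higher on every treated array in both lines. In 22RV1 it was 9.23, 9.14 and 9.09 untreated and 9.62, 9.47 and 9.72 treated. In LnCaP it was 10.51, 10.60 and 10.41 untreated and 10.66, 10.73 and 10.66 treated. The groups did not overlap in either line, and all 6 same-numbered pairs went up. The changes were 0.45 ± 0.085 in 22RV1 (SE, n = 3 per group, limma adjusted p = 0.460) and 0.18 ± 0.085 in LnCaP (adjusted p = 0.447). The average over the lines, 0.31 ± 0.060, just missed the threshold (limma adjusted p = 0.0533) and passed it with the block (limma adjusted p = 0.0262). The difference between the lines, -0.27 ± 0.12, did not pass (limma adjusted p = 0.786). ALDOA, the main aldolase of most tissues, changed by 0.01 and -0.07.

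VEGFA, the angiogenic growth factor, was 9.94, 10.02 and 9.39 in untreated 22RV1 and 10.14, 10.22 and 9.86 after nicotine. In LnCaP it was 10.01, 9.98 and 9.66 untreated and 10.30, 10.18 and 10.18 treated. The untreated array numbered 3 was the lowest in both lines, and the groups overlapped in 22RV1 and did not in LnCaP. The changes were 0.29 ± 0.16 (SE, n = 3 per group, limma adjusted p = 0.945) and 0.34 ± 0.16 (adjusted p = 0.422). Without 22RV1 untreated replicate 3 the change in 22RV1 was 0.09. The 3 other VEGFA probe sets were also above 0 in both lines, between 0.25 and 0.38 in 22RV1 and between 0.16 and 0.26 in LnCaP. All 6 same-numbered pairs went up, and the average, 0.32, passed with the block (limma adjusted p = 0.0340) but not without it (limma adjusted p = 0.290).

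With the block, the average over the lines thus called 3 of 33 members (HK2 at -0.29 with limma adjusted p = 0.0366, ALDOC and VEGFA) beside 3.31% of all genes, and 22RV1 alone called 0 of 33 beside 0%. Without the arrays numbered 3 and without a block, no member was called in any of the nicotine comparisons. HK2 then changed by -0.56 in LnCaP (limma adjusted p = 0.0521), and the averages were 0.25 for ALDOC (limma adjusted p = 0.197) and 0.22 for VEGFA (limma adjusted p = 0.224).

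**Figure D2:**
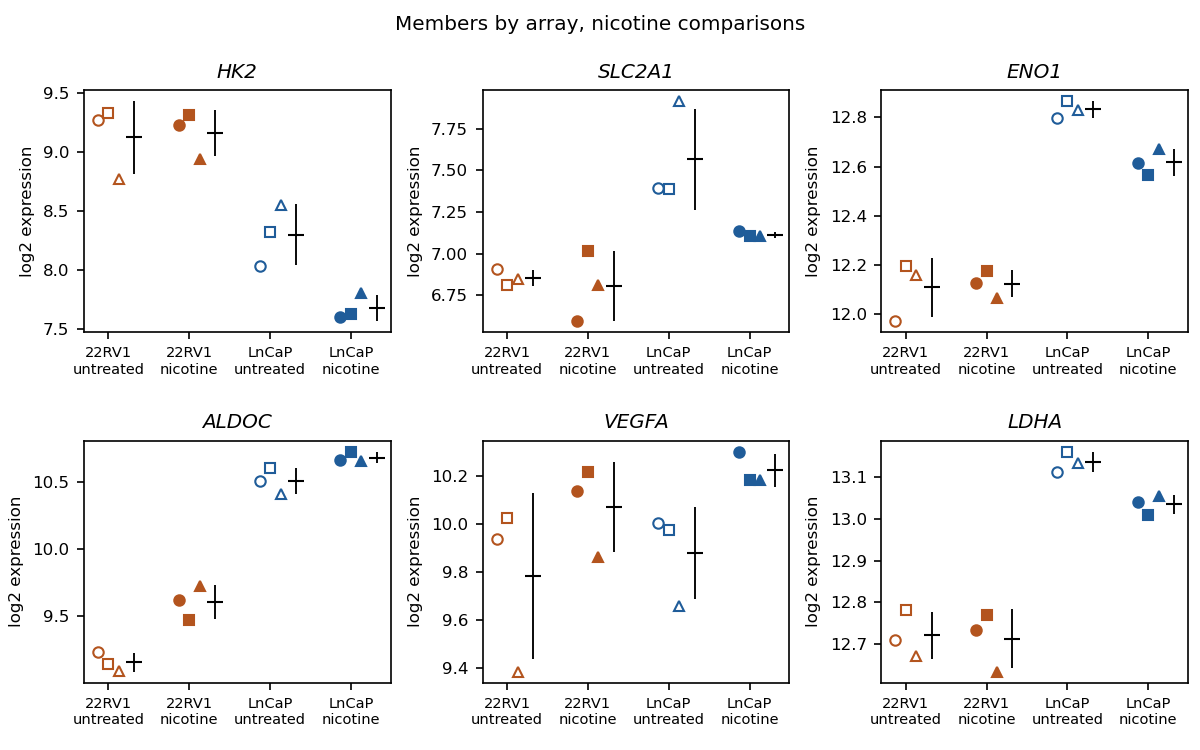
Log2 expression (y axis) of 6 members on each of the 12 arrays by group (x axis), with circles for replicate 1, squares for 2 and triangles for 3, open for untreated and filled for nicotine; the black mark and bar are the mean and SD of the group. HK2 and SLC2A1 are lower on all treated LnCaP arrays and ALDOC is higher on all treated arrays of both lines, while LDHA keeps nearly the same values in 22RV1.

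LDHA, which makes lactate from pyruvate, is a classical HIF target. It was 12.71, 12.78 and 12.67 in untreated 22RV1 and 12.73, 12.77 and 12.63 after nicotine, a change of -0.01 ± 0.068 with a 95% interval from -0.16 to 0.14. In LnCaP it was 13.11, 13.16 and 13.13 untreated and 13.04, 13.01 and 13.05 treated. There the groups did not overlap, but the shift was small (-0.10 ± 0.068, limma adjusted p = 0.656). LDHB, the isozyme that favours pyruvate, changed by -0.02 and -0.15.

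ENO1, the enolase that makes phosphoenolpyruvate, was lower on every treated LnCaP array: 12.80, 12.87 and 12.83 untreated against 12.61, 12.56 and 12.67 treated. The change of -0.22 ± 0.078 (SE, n = 3 per group) had an adjusted p of 0.256 in limma. Its other probe sets gave smaller changes, -0.02 and -0.11. In 22RV1, ENO1 changed by 0.01. PFKL, the liver-type phosphofructokinase, was lower on all treated 22RV1 arrays (8.91, 8.94 and 8.97 against 8.86, 8.89 and 8.56), by -0.17 ± 0.092 (limma adjusted p = 0.940), and the third treated array was the lowest.

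PGK1 and PGAM1, which follow GAPDH, changed by -0.02 and -0.06 in 22RV1 and by -0.02 and -0.05 in LnCaP. TPI1 changed by -0.03 and -0.05, GPI by -0.08 and -0.02, and the pyruvate kinase PKM by 0.01 and -0.08. The mitophagy receptors BNIP3 and BNIP3L, which HIF induces, changed by 0.06 and -0.003 in 22RV1 and by -0.01 and 0.18 in LnCaP. PDK1, the kinase that shuts pyruvate out of the mitochondrial oxidation route, changed by -0.05 and 0.04. The carbonic anhydrase CA12 changed by -0.04 and -0.01, and none of its 5 other probe sets passed either.

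Wider pathway lists gave the same count. Of 13 other components of HIF control, 21 other genes of glucose and pyruvate use and 29 further hypoxia targets, 0 were called after nicotine in either line, for the average or for the difference. Their medians were -0.05, -0.09 and 0.01 in 22RV1 and 0.06, -0.03 and -0.001 in LnCaP. With the block, 5 of these 63 genes passed in LnCaP, against 5.39% of all genes. The HIF partner ARNT2 rose by 0.47 (limma adjusted p = 0.0152). CITED2, which competes with HIF for its coactivator, rose by 0.54 (limma adjusted p = 0.0168) and the neuronal enolase ENO2 by 0.45 (limma adjusted p = 0.0187). Treated and untreated values overlapped for ARNT2, CITED2 and ENO2. Without the block their limma adjusted p-values were 0.396, 0.580 and 0.724. With the block, the pyruvate dehydrogenase subunit DLAT fell by 0.38 (limma adjusted p = 0.0221), and MPC2, a subunit of the mitochondrial pyruvate carrier, fell by 0.34 (limma adjusted p = 0.0404). Their groups did not overlap, and without the block the limma adjusted p-values were 0.105 and 0.263. For the average, 4 of these 63 genes passed with the block (ARNT2, ENO2, DLAT and MPC2), against 3.31% of all genes.

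The lines themselves differed far more than treated and untreated cells did. Between untreated arrays, 24 of 33 members were called (limma, adjusted p under 0.05), where 47.8% of all genes were: 18 were higher in LnCaP (25.4% of all genes) and 6 were lower (22.4%). The median difference, LnCaP minus 22RV1, was 0.42 over the members and 0.05 over all genes. The comparison of the lines and the nicotine comparisons share the untreated arrays, so they are not independent. The arrays after nicotine gave a second reading of the line difference, added after the data were seen. There 25 of 33 members were called (49.9% of all genes), 17 higher (26.2%) and 8 lower (23.7%) in LnCaP. Of the members, 23 were called in the same direction in both readings, as were 41.9% of all genes.

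**Figure D3:**
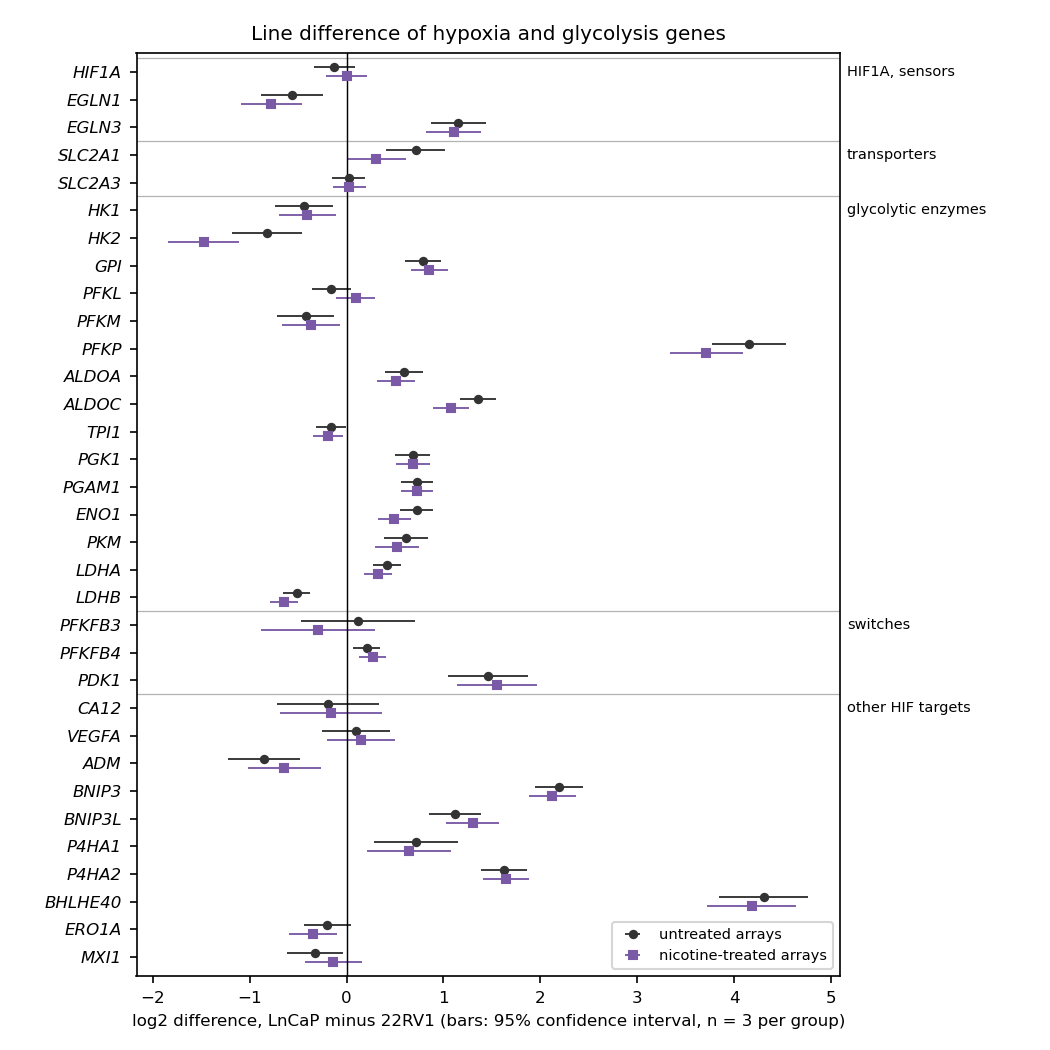
Log2 difference between the lines (x axis, LnCaP minus 22RV1) for the 33 members (y axis, grouped by role), with black circles for untreated and purple squares for nicotine-treated arrays; bars are 95% confidence intervals, with 3 arrays per group. BHLHE40 and PFKP lie farthest to the right, at 4.30 and 4.15 in untreated cells, and ADM (-0.85) and the HK2 probe set used (-0.82) are lowest among untreated arrays, with HK2 at -1.48 on treated arrays; a second HK2 probe set, not plotted, gave 0.96 in untreated cells.

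Of the 15 glycolytic enzymes, 9 were called higher and 4 called lower in untreated LnCaP (median 0.59). Of the 10 other HIF targets, 5 were called higher and 1 called lower (median 0.41). Among all genes, 25.4% were called higher and 22.4% lower. By sign alone, 9 enzymes were above 0 and 6 below, and 6 HIF targets were above 0 and 4 below. The enzymes' differences ran from -0.82 to 4.15 and those of the HIF targets from -0.85 to 4.30. The median of the enzymes was above that of the HIF targets by 0.18. It moved with the choice of probe set: with the mean of a gene's probe sets the gap was -0.03. It also moved with single arrays: it was 0.03 without 22RV1 untreated replicate 1, 0.05 without 22RV1 untreated replicate 2 and 0.36 without 22RV1 untreated replicate 3, and 0.11 without LnCaP untreated replicate 3.

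BHLHE40, a HIF-induced repressor also called DEC1, had the largest difference with the probe sets used. It was 4.08, 4.35 and 4.26 in untreated 22RV1 and 8.34, 8.23 and 9.03 in untreated LnCaP. The treated arrays read 4.32, 4.18 and 4.41 in 22RV1 and 8.40, 8.16 and 8.89 in LnCaP. No LnCaP array came near a 22RV1 array, and nicotine changed it by 0.07 in 22RV1 and -0.05 in LnCaP, which did not pass. The difference was 4.30 ± 0.21 (SE, n = 3 per group, 19.8-fold, limma adjusted p = 9.4e-09). Its other probe set gave 2.05, and the mean of both 3.18, so both the size and the rank above PFKP depend on the probe set. Detection calls were not used here, and whether the 22RV1 signal is above background is not known.

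PFKP, the platelet-type phosphofructokinase and one of 3 isozymes of the committed step of glycolysis, followed. It was 6.28, 6.34 and 6.10 in untreated 22RV1 and 10.38, 10.57 and 10.24 in untreated LnCaP, a difference of 4.15 ± 0.17 (SE, n = 3 per group, 17.8-fold, limma adjusted p = 2.3e-09). The treated arrays ran from 5.96 to 6.74 in 22RV1 and from 10.02 to 10.27 in LnCaP. The other isozymes did not follow: the muscle type PFKM was lower in LnCaP by 0.42 (log2 value -0.42, limma adjusted p = 0.0213), and PFKL at -0.16 did not pass (limma adjusted p = 0.181). The ratio of PFKP to PFKM signal therefore changed by 4.58 log2 units between the lines in untreated cells and by 4.08 after nicotine.

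BNIP3 was 9.49, 9.29 and 9.13 in untreated 22RV1 and 11.51, 11.66 and 11.31 in untreated LnCaP, a difference of 2.19 ± 0.11 (SE, n = 3 per group, 4.56-fold, limma adjusted p = 1.5e-08). Its other probe set gave 2.80. BNIP3L, its relative, was higher by 1.12 (limma adjusted p = 1.1e-05). P4HA2, a prolyl hydroxylase of collagen, read 6.43, 6.49 and 6.50 on the untreated 22RV1 arrays and 8.27, 8.12 and 7.92 on those of LnCaP, a difference of 1.63 ± 0.11 (SE, n = 3 per group, limma adjusted p = 1.4e-07). The other collagen hydroxylase on the list, P4HA1, was higher by 0.72 (limma adjusted p = 0.00979). For P4HA1, 22RV1 untreated replicate 3 was low, at 9.06 against 9.72 and 9.72.

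PDK1 was 6.26, 6.27 and 6.52 in untreated 22RV1 and 7.51, 7.55 and 8.37 in untreated LnCaP. Every LnCaP array was above every 22RV1 array, and LnCaP replicate 3 was the highest. The difference was 1.46 ± 0.19 (SE, n = 3 per group, 2.74-fold, limma adjusted p = 4.3e-05), and 1.18 without that array. PFKFB4, which makes the activator of phosphofructokinase, was higher by 0.21 (limma adjusted p = 0.0173), and PFKFB3, the other enzyme of this kind measured, differed by 0.12 ± 0.27 and did not pass.

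**Figure D4:**
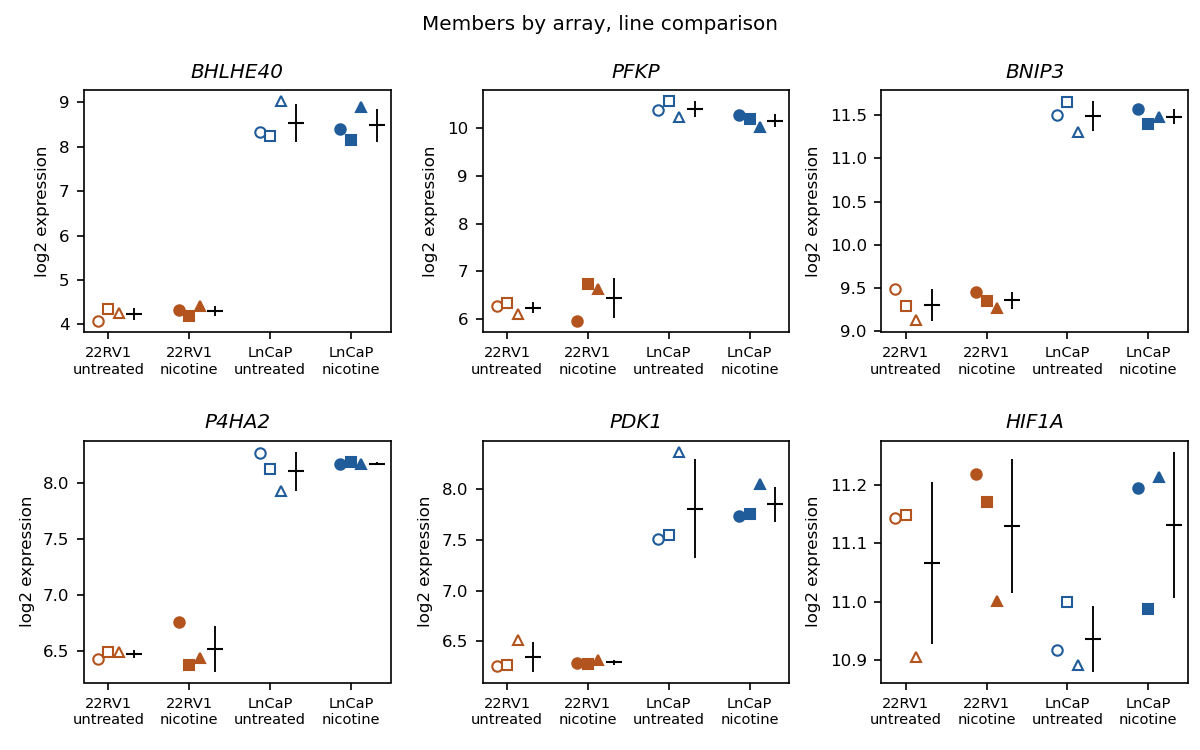
Log2 expression (y axis) of the 5 members with the largest line differences and of HIF1A on each of the 12 arrays by group (x axis), with circles for replicate 1, squares for 2 and triangles for 3, open for untreated and filled for nicotine; the black mark and bar are the mean and SD of the group. The LnCaP arrays lie above all 22RV1 arrays in 5 panels, and the lines overlap for HIF1A, which spans 10.89 to 11.22.

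Among the other enzymes of glycolysis, the higher ones lay along the pathway from GPI to LDHA. GPI, which makes fructose 6-phosphate, was higher in LnCaP by 0.79, ALDOA by 0.59 and ALDOC by 1.35. PGK1 was higher by 0.68, PGAM1 by 0.73, ENO1 by 0.72, PKM by 0.61 and LDHA by 0.42, with limma adjusted p-values of 3.1e-04 or less. Not every gene on this stretch was higher: PFKM and PFKL, given above, were at -0.42 and -0.16. TPI1, which interconverts the triose phosphates, was at -0.16 and did not pass in untreated cells (limma adjusted p = 0.0862). It was called lower in LnCaP on the treated arrays (-0.19, limma adjusted p = 0.0446). GAPDH, measured outside the list, differed by -0.02 (limma adjusted p = 0.820). PKM's other probe set gave 0.23, while those of ALDOA, ENO1 and PGK1 ran from 0.55 to 0.89.

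HK1 and LDHB went the other way, and the HK2 probe sets disagreed. HK1 was lower in LnCaP by 0.44 (log2 value -0.44, limma adjusted p = 0.0176). The HK2 probe set used here gave -0.82 (limma adjusted p = 0.00130). HK2's second, dimmer probe set differed by 0.96 in the opposite direction and was itself called, so the direction of HK2 between the lines is not settled by these arrays; as a mean of both probe sets HK2 was not called in untreated cells. LDHB was lower by 0.52 (log2 value -0.52, limma adjusted p = 3.4e-05), and its other probe set gave -0.57. With LDHA higher and LDHB lower, the ratio of LDHA to LDHB signal changed by 0.93 between the lines untreated and by 0.97 after nicotine.

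HIF1A did not pass between the lines (-0.13 ± 0.097 untreated, 95% interval from -0.34 to 0.08, limma adjusted p = 0.307, and 0.002 ± 0.097 after nicotine). The oxygen sensors differed in opposite directions: EGLN3 was higher in LnCaP by 1.15 (limma adjusted p = 1.4e-05) and EGLN1 lower by 0.56 (log2 value -0.56, limma adjusted p = 0.00623). EGLN3 read 4.03 to 4.46 in untreated 22RV1, and as for BHLHE40 it is not known whether that signal is above background. SLC2A1 was higher in untreated LnCaP by 0.71 ± 0.14 (SE, n = 3 per group, limma adjusted p = 9.98e-04) and by 0.31 after nicotine, which did not pass (limma adjusted p = 0.0864). Its dimmer probe set gave 0.14. SLC2A3, whose signal was low in both lines, differed by 0.02.

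Several standard HIF targets did not follow BHLHE40 and BNIP3. VEGFA differed by 0.10 ± 0.16 (SE, n = 3 per group, 95% interval from -0.25 to 0.45, limma adjusted p = 0.663), and its 3 other probe sets by 0.19 to 0.23. CA12 at -0.19, the oxidase ERO1A at -0.20 and the MYC antagonist MXI1 at -0.33 did not pass in untreated cells. MXI1 passed with the replicate number as a block over both lines, a fit added after the data were seen (limma adjusted p = 0.00305), and ERO1A passed on the treated arrays (-0.35, limma adjusted p = 0.0210). ADM, the vasodilator peptide adrenomedullin, was lower in LnCaP by 0.85 (log2 value -0.85, limma adjusted p = 0.00126). Members whose windows held ACGTG had a median difference of 0.59 (17 genes) and those without it 0.21 (13 genes), given as a description. That split leaves GCGTG aside. Members with neither ACGTG nor GCGTG in a window were P4HA2 at 1.63, EGLN3 at 1.15, PGAM1 at 0.73, SLC2A1 at 0.71, PKM at 0.61 and LDHB at -0.52. A link between matches and line differences was not tested.

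The wider lists had medians closer to 0. Of the 29 further hypoxia targets, 10 were called higher and 9 called lower in untreated LnCaP (median 0.01). Of 21 other genes of glucose and pyruvate use, 5 were called higher and 3 lower (median 0.12). Of 13 other HIF components, 5 were called higher and 4 lower (median 0.08). Among all genes, 25.4% were called higher and 22.4% lower. INSIG2, a brake on sterol synthesis, was higher by 2.01 and the hormone gene STC2 by 1.70. The muscle phosphoglycerate mutase PGAM2 was lower by 4.20 (log2 value -4.20) and TMEM45A by 3.41 (log2 value -3.41), all with limma adjusted p-values of 1.4e-06 or less. No test compared these lists with the members.

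**Figure D5:**
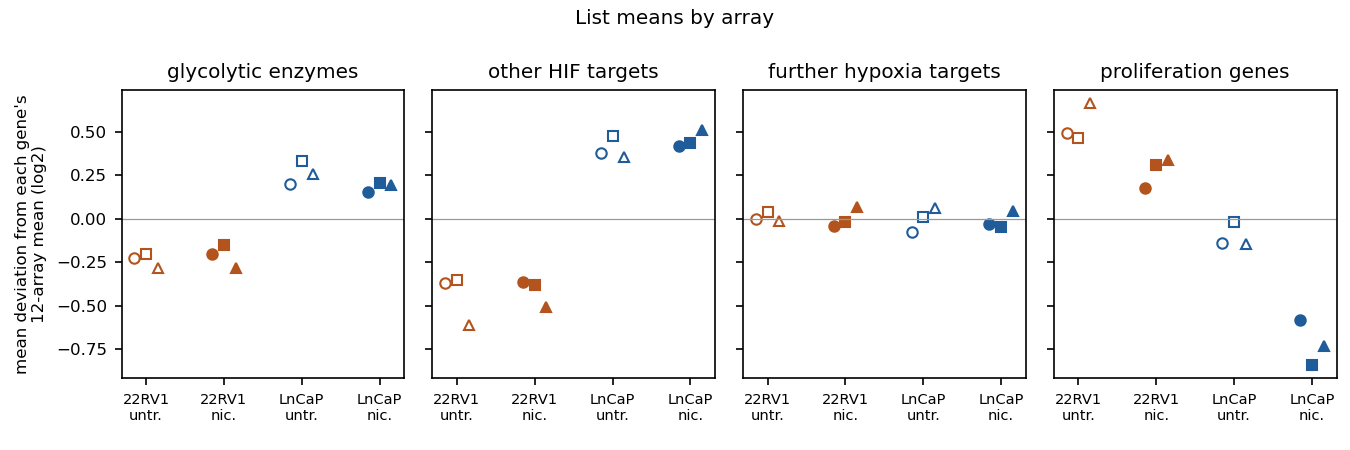
Mean deviation of a list's genes from each gene's 12-array mean (y axis, log2) on every array by group (x axis), with circles for replicate 1, squares for 2 and triangles for 3, open for untreated and filled for nicotine. The list means of glycolytic enzymes and other HIF targets are lower on all 22RV1 arrays (-0.15 or lower) than on all LnCaP arrays (0.15 or higher). Those of further hypoxia targets stay between -0.07 and 0.07, and those of proliferation genes are lowest in nicotine-treated LnCaP. A mean gives weight to large single differences, here PFKP (4.15) and BHLHE40 (4.30) in untreated cells. Of the genes, 6 of 15 enzymes and 4 of 10 HIF targets were lower in untreated LnCaP.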

How the data were processed

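The authors deposited log2 expression values for 22277 probe sets on 12 arrays, used as deposited with no filter. Their normalization is not given in the sources used here. TRIzol RNA was turned into biotinylated cRNA for Affymetrix arrays, per the labels' protocols. Of the probe sets, 19070 had 1 gene symbol, 1043 several and 2164 none listed, and the one-symbol probe set with the highest mean stood for each of 11963 genes. All arrays were fitted together in limma 3.58.1 (R 4.3.3, lmFit and eBayes, group means), p-values were two-sided and adjusted by Benjamini-Hochberg over all genes within a comparison, and the threshold was 0.05. The fit was tested on simulated data. The number of arrays limits the precision.

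Replicate numbers come from the labels. Within a line, arrays that share a number deviated alike from their groups, with correlations over genes of 0.465, 0.454 and 0.640 in 22RV1 and 0.371, 0.225 and 0.599 in LnCaP, all over 0.1, which was taken as pairing. Numbers 1 and 2 were not told apart as clearly as 3: different-numbered arrays reached 0.270 in both lines, and LnCaP untreated replicate 2 correlated better with nicotine replicate 1 than with its own number. A fit with number within line as a block (6 blocks) is given where it changes a call.

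Members and lists were chosen with earlier results of these data known. By rule, array values were given for HIF1A, SLC2A1, LDHA and VEGFA. They were also given for the 3 members with the smallest p in each nicotine comparison and for the 5 largest called line differences. In the wider lists, the called genes with the smallest p, up to 4, were named for the untreated line comparison only. Genes of these lists that passed only with the block were named outside this rule. GAPDH was named after its values were seen. Of the probe sets used for members, 7 have names ending in x_at and 14 in s_at, which mark probes that can match other transcripts or related genes. Sequences are from RefSeq.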

Additional observations from a re-analysis of the deposited data

How the results depend on the processing

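The counts of members called in 22RV1 and for the difference of effects stayed at 0 under all settings tried. In LnCaP the count rose from 0 to 1 (HK2) with the replicate block and with the mean of a gene's probe sets. For the average over the lines it rose from 0 to 3 with the replicate block and to 1 (ALDOC) with array weights, a variance trend, quantile normalization, the mean of a gene's probe sets or the lowest 25% of genes left out. Leaving out each replicate in turn kept all nicotine counts at 0. The line counts ran from 21 to 26 untreated and from 20 to 26 after nicotine. The gap between glycolytic enzymes and other HIF targets in untreated cells was -0.027 with the mean of probe sets and ran from 0.028 to 0.357 over the left-out replicates. Small changes in 22RV1 that turned sign, all far from the threshold, were those of LDHA (0.0069 without the arrays numbered 3, 0.0077 with quantile normalization, and -0.036 to 0.032 over the left-out replicates), HIF1A (-0.016 to 0.128) and SLC2A1 (-0.152 to 0.058). The cause was not tested. Centring the arrays on their medians moved the all-gene line difference from 0.05 to 0.11 and left 18 members higher and 6 lower in untreated LnCaP. Counts over all genes moved more. In LnCaP 83 genes were called, 645 with the replicate block, 175 with array weights, 143 without the arrays numbered 3, 134 with a variance trend, 1 with only the arrays compared, and 0 to 113 over the left-out replicates. For the average, 45 were called, 396 with the block, 112 with array weights, 7 without the arrays numbered 3 and 0 to 36 over the left-out replicates. For the difference, 0 were called, 19 with the block and up to 1 over the left-out replicates, and in 22RV1 0, and up to 1 with array weights or a left-out replicate. The block changed no call of a member in the nicotine comparisons beyond those of HK2, ALDOC and VEGFA. A fit on only the arrays compared has no meaning for the average and the difference and was not run there, and the within-line block could not be fitted to the line comparisons.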
